A study of Mus musculus with 18 samples.

Results

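Toll-like receptors are transmembrane sensors of microbial products. Tlr1, Tlr2, Tlr4 and Tlr6 act at the cell surface on bacterial lipoproteins and lipopolysaccharide, whereas Tlr3, Tlr7, Tlr8, Tlr9 and Tlr13 act in endosomes on nucleic acids. Cd14 is a co-receptor that hands lipopolysaccharide to Tlr4 and its partner Ly96. Ligand-bound receptors recruit the adaptors Myd88 or Ticam1 (TRIF), which lead through kinases to NF-kB and interferon regulatory factors, and macrophages are among the cells best known for using this pathway. Expression of these 10 genes, 9 receptors and Cd14, was compared between 2 subsets of metastasis-associated macrophages (MAMs). The genes were taken by their symbols from the 13759 genes listed for the macrophage libraries, and 10 of 10 were listed and tested.

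The macrophages came from liver metastases of MC38, a mouse colon adenocarcinoma line, in C57BL/6J mice. The labels call the animals female, and the study's methods give an age of 8 to 10 weeks and an analysis of the livers 20 days after MC38 cells were injected into the spleen, which was then removed. Lineage-negative CD45+CD11b+ cells were sorted by surface F4/80 as F4/80high or F4/80low, with 3 libraries each, and no further treatment or genotype distinguishes the groups. Whether a library held cells of 1 animal or of several is not given for the macrophages, so p-values measure the spread between these libraries, which may be technical. The series also holds 12 libraries of sorted type 1 lymphocytes, made with another kit and kept in a table of their own.

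Library totals lay between 21278959 and 32267015 estimated counts, and the first principal component, with 78.2% of the variance, separated the subsets. Adgre1, which encodes F4/80 and was the basis of the sort, stood at a mean of 958 CPM (a gene's counts relative to the library's total) in F4/80high and 146 CPM in F4/80low libraries. Marker genes are counted as higher or lower at an adjusted p under 0.1 in edgeR, as 27.8% and 27.1% of all genes were. Of 12 macrophage markers, a list that includes Adgre1 itself, 9 were higher in F4/80high cells and 0 lower. Their summed levels were 24401 to 33604 CPM against 8816 to 11265 CPM. Most markers of conventional and mature dendritic cells (DCs) went the other way. Of 10 conventional DC markers, 8 were lower in F4/80high cells (summed levels of 382 to 428 against 1688 to 2256 CPM). Cadm1, also on that list, was higher, with means of 53.3 against 7.45 CPM. Of 5 mature DC markers, 5 were lower (summed levels of 45.0 to 67.0 against 803 to 1634 CPM). None of the DC markers was at 0 in mean level, although Flt3, Zbtb46 and Cd209a had means of 2.09, 1.77 and 1.93 CPM in F4/80high against 106, 55.1 and 128 CPM in F4/80low libraries. Of 8 classical monocyte markers 7 were lower in F4/80high cells and 1 higher (954 to 1229 against 2358 to 2747 CPM). Of 8 neutrophil markers tested 7 were lower, with summed levels that overlap (74.0 to 105 against 99.1 to 205 CPM). Csf3r, which was not called (means of 85.7 against 75.2 CPM), makes up most of the sum in F4/80high libraries. The 7 lower markers had means of 0.015 (Ngp) to 0.464 (Mmp8) CPM in F4/80high cells. In F4/80low cells their means were 1.85 (Cxcr2) to 19.3 (Ngp) CPM, with a wide spread (Ngp at 51.4, 1.30 and 5.06 CPM). The F4/80low libraries thus held more transcripts of DC and monocyte markers, and the part of these and of the neutrophil markers in the differences given below, those of the NF-kB and inflammatory genes included, was not tested. In these bulk samples, fewer cells of a type and less RNA per cell cannot be told apart.

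**Figure D1:**
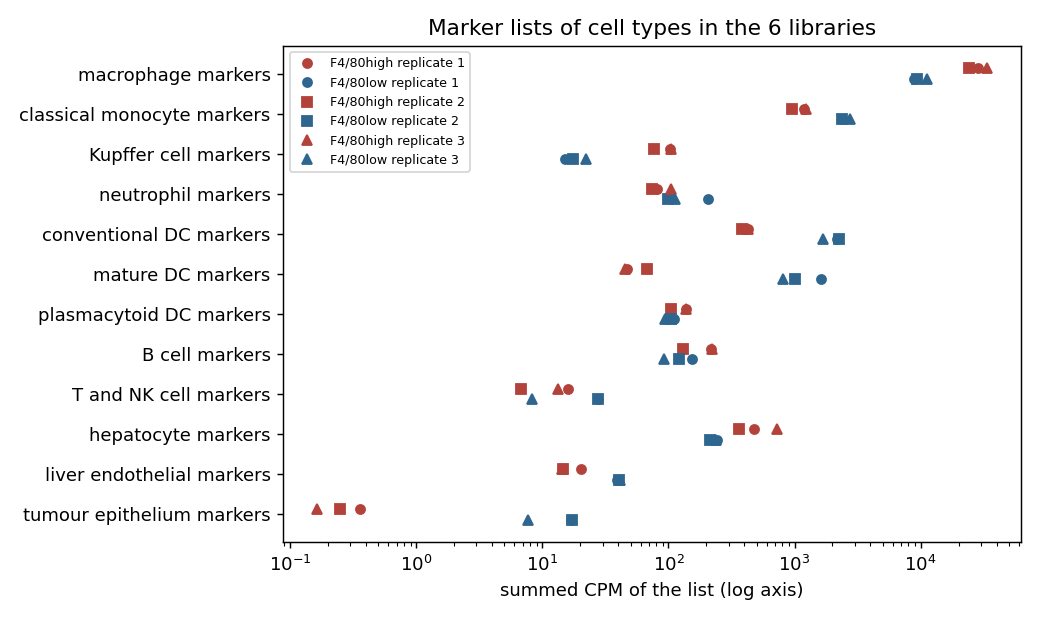
Summed CPM (log axis) of 12 cell type marker lists in each of the 6 libraries, with red for F4/80high, blue for F4/80low and a symbol for each replicate. Sums of macrophage and Kupffer cell markers are higher in every F4/80high library, and sums of conventional and mature DC markers are higher in every F4/80low library. Of 7 Kupffer cell markers, 5 are higher in F4/80high cells and 1, Timd4, is lower (means of 0.368 against 8.41 CPM). Folr2 (79.6 against 4.70 CPM) makes up most of the Kupffer sum in F4/80high libraries.

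The receptors are placed here on GRCm39, the build named for the files. Tlr1 (chr5:65082022-65090941, minus strand) and Tlr6 (chr5:65108704-65203497, minus strand) are neighbours, as are Tlr8 (chrX:166024184-166047325, minus strand) and Tlr7 (chrX:166086758-166113605, minus strand). Tlr13 is also X-linked (chrX:105186810-105204533, plus strand). Tlr2 is at chr3:83743576-83749074 on the minus strand, Tlr3 at chr8:45848702-45864117 on the minus strand, Tlr4 at chr4:66745783-66849936 on the plus strand and Tlr9 at chr9:106099797-106104082 on the plus strand. An exon of Tlr3 overlaps one of the opposite-strand long noncoding gene Gm45542, and an exon of Tlr4 overlaps one of Gm69151 on the opposite strand. Whether counting used strand is not given in the sources used here, so reads in those overlaps cannot be assigned with certainty.

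Tlr1 and Tlr6 are near copies over part of their coding sequence, where reads of one can be credited to the other. Their coding sequences were 74.4% identical, and 607 stretches of 31 bases occurred in the transcripts of both, 17.8% of those of Tlr1 and 12.5% of those of Tlr6. The longest identical run had 229 bases, and its first 120 bases, at positions 1468 to 1587 of the Tlr1 coding sequence, are shown because counts from this stretch cannot separate the 2 genes.
Tlr1 and Tlr6, shared coding stretch: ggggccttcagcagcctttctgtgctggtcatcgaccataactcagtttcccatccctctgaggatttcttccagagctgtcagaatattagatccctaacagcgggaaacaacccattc
The pair Tlr7 and Tlr8 shared 0 such stretches, and its coding identity was 54.2%. Values of Tlr1 and Tlr6 are therefore less certain than those of the other members.

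The 250 bases before the annotated start are given for 4 receptors that span the range of results below: Tlr8 and Tlr3, which were higher in F4/80high cells, and Tlr2 and Tlr9, which passed no threshold. The windows are chrX:166047283-166047532 for Tlr8, chr8:45863425-45863674 for Tlr3 and chr3:83749075-83749324 for Tlr2, each on the minus strand, and chr9:106099547-106099796 on the plus strand for Tlr9. Capitals mark matches on either strand to the letters searched.
Tlr8: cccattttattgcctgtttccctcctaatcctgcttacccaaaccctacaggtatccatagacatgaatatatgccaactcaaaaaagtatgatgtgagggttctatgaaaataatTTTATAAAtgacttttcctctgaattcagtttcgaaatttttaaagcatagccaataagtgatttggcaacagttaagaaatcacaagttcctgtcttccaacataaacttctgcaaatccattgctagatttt
Tlr3: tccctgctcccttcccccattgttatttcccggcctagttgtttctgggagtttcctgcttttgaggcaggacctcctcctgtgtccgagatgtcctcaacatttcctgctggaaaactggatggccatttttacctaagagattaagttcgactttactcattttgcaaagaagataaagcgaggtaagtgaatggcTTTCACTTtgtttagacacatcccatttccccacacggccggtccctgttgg
Tlr2: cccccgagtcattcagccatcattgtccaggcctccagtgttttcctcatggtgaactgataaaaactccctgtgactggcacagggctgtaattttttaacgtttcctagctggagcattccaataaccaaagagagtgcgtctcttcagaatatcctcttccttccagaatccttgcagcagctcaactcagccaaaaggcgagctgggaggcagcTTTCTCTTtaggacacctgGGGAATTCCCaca
Tlr9: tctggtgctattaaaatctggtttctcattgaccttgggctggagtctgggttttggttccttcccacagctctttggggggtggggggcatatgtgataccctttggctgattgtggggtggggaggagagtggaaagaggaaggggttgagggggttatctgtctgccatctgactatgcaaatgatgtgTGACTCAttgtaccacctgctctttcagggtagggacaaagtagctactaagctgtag
The letters searched were GAGGAAGT for PU.1, GGGANTTCC for NF-kB, AANNGAAA for interferon regulatory factors (IRF), TGANTCA for AP-1 and TATAAA for the TATA box. They occur in 2.08%, 1.38%, 22.4%, 6.18% and 11.9% of the windows of 21757 protein-coding genes.

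Positions are counted back from the start, where -1 is the base just before it. TATAAA lay at -132 to -127 before Tlr8, where a match on the other strand at -134 to -129 overlaps it. Tlr6 also held the TATA letters, at 3 places. Tlr2 held the NF-kB letters at -13 to -5, overlapped by a match on the other strand at -12 to -4, and the IRF letters at -32 to -25. Tlr3 held the IRF letters at -52 to -45, and Tlr9 held the AP-1 letters at -58 to -52. PU.1 letters were found in none of the 8 receptor windows described, and Tlr1, Tlr4 and Tlr13 held none of the 5 motifs. A match describes the letters and is no evidence of binding, and the lack of one says only that the letters are not in the window.

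The comparison of F4/80high with F4/80low MAMs asked how the genes that let macrophages sense microbial products differ between the subsets. Of the 10 genes, 6 were higher in F4/80high cells at an adjusted p under 0.1 (edgeR, adjusted over all 13759 genes): Tlr1, Tlr3, Tlr4, Tlr7, Tlr8 and Tlr13. None was lower (0 of 10), and 0 had an unadjusted p under 0.05 in that direction, while DESeq2 called 1 lower (Tlr9) and limma-voom 0. Among all genes 27.8% were called higher and 27.1% lower, so the share of the members called higher is above that of the table. For the 6 called genes the lowest F4/80high library was above the highest F4/80low library, as it was for 29.8% of all genes. The median log2 fold change of the members was 0.62, against 0.014 for all genes tested.

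**Figure D2:**
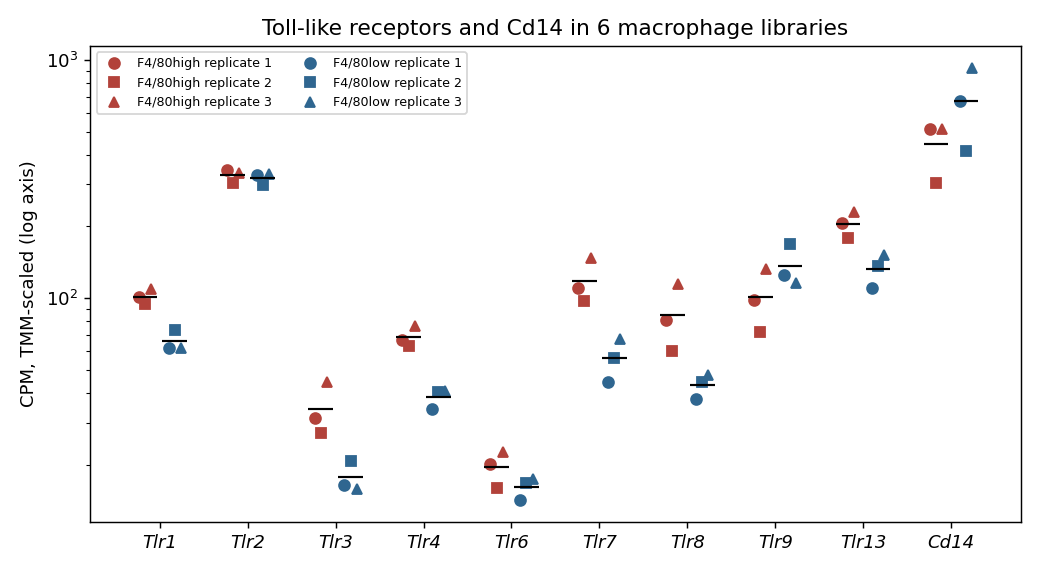
CPM (log axis) of each member in the 6 libraries, with red for F4/80high, blue for F4/80low, a symbol for each replicate and a line at the mean of 3. The subsets do not overlap for Tlr1, Tlr3, Tlr4, Tlr7, Tlr8 and Tlr13, and overlap for Tlr2, Tlr6, Tlr9 and Cd14.

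Tlr7 senses single-stranded RNA in endosomes, and Tlr8 is its closest relative. Tlr7 was at 111, 97.8 and 148 CPM in the F4/80high and at 44.6, 56.0 and 67.4 CPM in the F4/80low libraries, a 2.12-fold difference (log2 fold change 1.09 ± 0.19, SE, n = 3 per subset; adjusted p = 0.00182, edgeR). Every F4/80high library was above every F4/80low one, by the widest fold change of the 10 genes. Tlr8 had 81.4, 59.9 and 115 CPM in F4/80high against 37.9, 44.8 and 47.8 CPM in F4/80low libraries. Its log2 fold change was 0.97 ± 0.21 (adjusted p = 0.00623), and its F4/80high libraries were the more spread, with replicate 3 highest and replicate 2 lowest.

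Tlr3, the endosomal receptor for double-stranded RNA and one that signals through Ticam1 alone, was less abundant. Its libraries had 31.5, 27.3 and 44.6 CPM in F4/80high and 16.6, 20.8 and 15.9 CPM in F4/80low cells, with a log2 fold change of 0.96 ± 0.19 (adjusted p = 0.00367). The groups were apart, and F4/80high replicate 3 again stood highest. Tlr13 recognises bacterial ribosomal RNA. It reached 206, 179 and 229 CPM in F4/80high against 110, 136 and 152 CPM in F4/80low libraries, a log2 fold change of 0.63 ± 0.14 (adjusted p = 0.00604).

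Tlr9, the endosomal receptor for unmethylated CpG DNA, did not share this direction. It was at 98.1, 72.3 and 132 CPM in F4/80high and at 125, 169 and 115 CPM in F4/80low libraries, and the groups overlapped because F4/80high replicate 3 lay above 2 F4/80low libraries. The log2 fold change was -0.43 ± 0.22 (95% interval -0.94 to 0.08; adjusted p = 0.144), which did not pass the threshold. Without F4/80high replicate 3 it was -0.69 with an adjusted p of 0.0267, and DESeq2 on all 6 libraries gave -0.45 with 0.0690. Other single libraries moved it the other way: with each left out in turn, it lay between -0.69 and -0.24. The adjusted p in edgeR was then 0.0267 to 0.404, so the result for Tlr9 depended on single libraries in both directions and on the test.

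Tlr4, the lipopolysaccharide receptor, had the smallest adjusted p of the 10 genes. Its libraries had 67.2, 63.4 and 76.5 CPM in F4/80high and 34.5, 40.4 and 40.9 CPM in F4/80low cells, with a log2 fold change of 0.84 ± 0.11 (adjusted p = 0.000358). The groups were far apart relative to their spread. Cd14, its co-receptor, lies at chr18:36858120-36859851 on the minus strand. It stood at 514, 303 and 511 CPM in F4/80high and at 674, 416 and 927 CPM in F4/80low libraries. These values overlapped, and the SE was the widest of the 10 genes. The log2 fold change of -0.60 ± 0.30 (95% interval -1.28 to 0.08; adjusted p = 0.129) did not pass the threshold. Without F4/80low replicate 2 it was -0.86 with an adjusted p of 0.0289. With each library left out in turn, it lay between -0.86 and -0.30, with adjusted p of 0.0289 to 0.422 in edgeR. With the replicate number as a block in edgeR, Cd14 was at -0.57 with an adjusted p of 0.0074. Cd14 was lowest in replicate 2 of both subsets, but no label says what same-numbered libraries share.

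Tlr2 forms heterodimers with Tlr1 or Tlr6 to bind triacylated or diacylated lipoproteins. Tlr2 was at 346, 306 and 336 CPM in F4/80high and at 327, 299 and 333 CPM in F4/80low libraries, which overlap almost fully. Its log2 fold change of 0.04 ± 0.09 (adjusted p = 0.732) had a 95% interval of -0.16 to 0.24. Tlr1 was at 101, 94.3 and 109 CPM in F4/80high and at 62.2, 73.9 and 61.7 CPM in F4/80low libraries, with a log2 fold change of 0.62 ± 0.10 (adjusted p = 0.00132). The groups were apart for Tlr1, but overlapped for Tlr6, which had 20.3, 16.1 and 22.7 CPM in F4/80high and 14.3, 16.9 and 17.4 CPM in F4/80low libraries. The log2 fold change of Tlr6 was 0.28 ± 0.15 (adjusted p = 0.149). Without F4/80high replicate 2 it was 0.41 with an adjusted p of 0.0364. With each library left out in turn, it lay between 0.16 and 0.41, with adjusted p of 0.0364 to 0.432 in edgeR. Whether shared reads bear on the values of Tlr1 or Tlr6 was not tested.

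**Figure D3:**
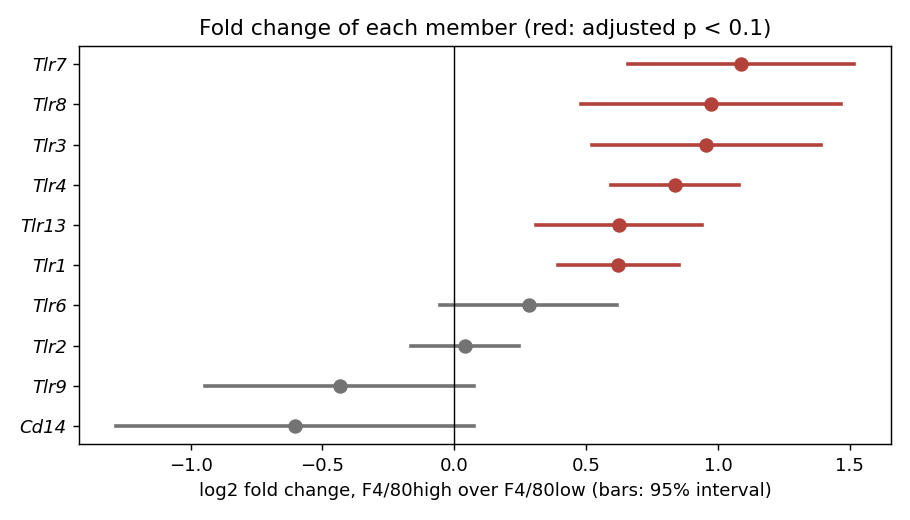
Log2 fold change of each member, F4/80high over F4/80low, with its 95% interval from the edgeR fit (n = 3 per subset) and red for an adjusted p under 0.1. The 6 called members lie between 0.62 and 1.09, and the intervals of Tlr2, Tlr6, Tlr9 and Cd14 include 0.

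An exact permutation test on single genes (two-sided) gave 0.1 for each of the 6 called members, which is the smallest p that 3 libraries against 3 allow. It gave 0.5 for Tlr2 and 0.3 for Tlr6, Tlr9 and Cd14. The 6 calls held in each of 15 alternative analyses, among them each of the 6 libraries left out in turn. The alternative without a filter had to repeat the main fit, because the filter removed no gene. Scaling by library totals alone shifted the median of all genes to 0.16 and the share of called genes that were higher from 50.6% to 64.9%, and 8 members were then called higher, Tlr2 (0.19) and Tlr6 (0.43) with the other 6.

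Within the F4/80high subset the members varied together. Replicate 2 had the lowest level of all 10 genes and replicate 3 the highest of 8, while among all genes 36.6% were lowest in replicate 2 and 34.9% highest in replicate 3. Summed macrophage markers were also lowest in replicate 2 (24401 CPM) and highest in replicate 3 (33604 CPM), a measure whose part in the receptors' spread was not tested. In the F4/80low subset, replicate 3 was highest for 7 members and replicate 1 lowest for 5.

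To compare genes with each other, CPM was divided by the exon length of each gene in kilobases (kb). In F4/80high cells Cd14 came first at 256 ± 69.8 CPM per kb (SD, n = 3), followed by Tlr2 (59.9 ± 3.80), Tlr13 (43.3 ± 5.27), Tlr1 (30.0 ± 2.18), Tlr9 (29.0 ± 8.68), Tlr7 (22.4 ± 4.87), Tlr8 (16.8 ± 5.43), Tlr4 (9.85 ± 0.964), Tlr3 (6.45 ± 1.69) and Tlr6 (4.05 ± 0.692). Neighbours in this order whose libraries overlapped were Tlr1 and Tlr9, Tlr9 and Tlr7, and Tlr7 and Tlr8. In F4/80low cells the order was Cd14 (388 ± 148), Tlr2 (58.2 ± 3.33), Tlr9 (39.2 ± 8.23), Tlr13 (28.0 ± 4.44), Tlr1 (19.5 ± 2.03), Tlr7 (10.6 ± 2.15), Tlr8 (8.54 ± 0.993), Tlr4 (5.51 ± 0.507), Tlr6 (3.34 ± 0.347) and Tlr3 (3.32 ± 0.499). Here Tlr7 overlapped Tlr8, and Tlr6 overlapped Tlr3. Tlr9 thus moved from the fifth place in F4/80high to the third in F4/80low cells (from the sixth to the fourth per coding length), while Cd14 and Tlr2 led in both. The level of Tlr2 per kb was 14.8 times that of Tlr6 in F4/80high cells and 17.5 times that of Tlr3 in F4/80low cells, the lowest receptor of each.

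**Figure D4:**
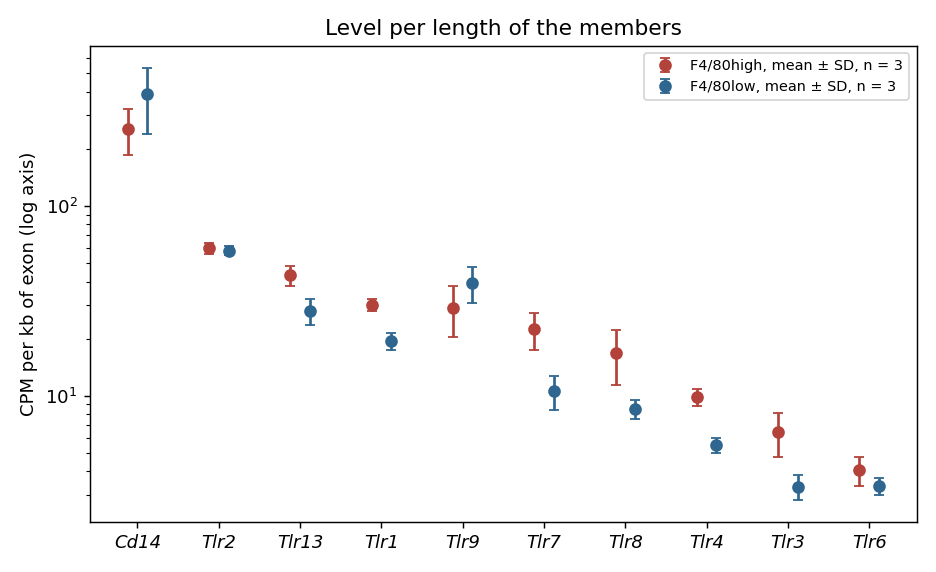
CPM per kb of exon (log axis) of each member, as mean and SD of 3 libraries, with red for F4/80high and blue for F4/80low, in the order of the F4/80high means. Cd14 and Tlr2 lead in both subsets, and Tlr9 and Cd14 are the members whose F4/80low mean is above the F4/80high mean.

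The genes with a pattern closest to that of Tlr4 over the 6 libraries, by Pearson correlation of log2 CPM among 10079 genes with a mean of at least 5 CPM, were Ctnnd1 (r = 0.999), Spred1 (0.999) and Igf1 (0.998). The 6 points share the split by subset, so many genes correlate strongly. Igf1, a growth factor gene, differed far more, with 20.96 CPM in F4/80high and 1.39 CPM in F4/80low cells, while Spred1, an inhibitor of Ras signalling, had 179 and 112 CPM.

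The 3 remaining receptor genes of the mouse were all called, in both directions. Tlr12, a receptor for parasite profilin, was at 24.9, 20.1 and 28.0 CPM in F4/80high against 6.57, 4.41 and 2.25 CPM in F4/80low libraries (log2 fold change 2.45 ± 0.32, adjusted p = 0.000452). Its profilin-sensing partner Tlr11 was the opposite, with 0.765, 0.779 and 0.876 CPM against 7.59, 7.34 and 4.84 CPM (-3.02 ± 0.26, adjusted p = 4.69e-05). Tlr5, the flagellin receptor, was at 8.19, 5.92 and 9.47 CPM against 10.7, 11.1 and 16.3 CPM (-0.69 ± 0.23, adjusted p = 0.0352). Leaving out F4/80low replicate 3 took Tlr5 to -0.47 with an adjusted p of 0.125.

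Around the receptors, 104 genes in 8 lists cover the pathway by role, of which 101 were tested, 16 were higher and 59 lower in F4/80high cells, against 27.8% and 27.1% of all genes. Accessory and trafficking genes had 8 higher and 5 lower of 17, with a median log2 fold change of 0.36. Ly96, the partner of Tlr4, was higher at 7.59 against 5.38 CPM (0.50, adjusted p = 0.0212). Cd180 and its partner Ly86, which temper Tlr4 signalling, were higher by 0.74 and 0.60 on the log2 scale. Unc93b1, the chaperone that carries endosomal receptors from the endoplasmic reticulum, was also higher, at 1206 against 879 CPM (0.46, adjusted p = 0.0217).

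The listed proteases that process endosomal receptors did not share a direction. Ctss (cathepsin S), named after its value was seen, was not called, at 2979 against 2969 CPM (log2 fold change 0.005, adjusted p = 0.975, edgeR). Lgmn (asparagine endopeptidase) had 3064 against 888 CPM and Ctsb (cathepsin B) 4463 against 1659 CPM, both higher in F4/80high cells, with log2 fold changes of 1.79 and 1.43. Ctsk (cathepsin K) was at 5.76, 2.34 and 3.70 CPM in F4/80high against 291, 164 and 230 CPM in F4/80low libraries, a log2 fold change of -5.88 ± 0.34 (adjusted p = 7.19e-06). The lysosomal transporters Slc15a4 (-0.44) and Slc15a3 (-0.40), of which Slc15a4 is needed for Tlr7 and Tlr9 responses, were lower. Cd36, a scavenger receptor that aids Tlr2, was lower by a log2 fold change of -1.38, and by -0.74 (adjusted p = 0.0294) without F4/80low replicate 3.

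Of 7 adaptors, 2 were higher and 2 lower (median -0.014). Myd88, used by all receptors but Tlr3, was at 113, 118 and 114 CPM in F4/80high against 166, 183 and 170 CPM in F4/80low libraries (-0.59 ± 0.08, adjusted p = 0.000439). Ticam1 was at 28.6, 32.7 and 32.7 CPM against 44.1, 53.6 and 51.4 CPM (-0.66 ± 0.10, adjusted p = 0.00108). The subsets were apart for both genes, opposite in direction to Tlr3, Tlr4 and Tlr7. The bridging adaptors Tirap (20.7 against 20.9 CPM; adjusted p = 0.944) and Ticam2 (49.5 against 53.3 CPM; adjusted p = 0.532) passed no threshold, and their signs depended on the scaling. Pik3ap1 (BCAP) was higher by 0.53. Tasl, the adaptor of Slc15a4, was higher by 0.34 (adjusted p = 0.0524), a call lost without F4/80high replicate 1 or without F4/80low replicate 2 or 3, with log2 fold changes of 0.23, 0.33 and 0.31.

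Kinases and ubiquitin ligases had 2 higher and 8 lower of 16 (median -0.27). The IkB kinases Ikbkb (91.6 against 231 CPM, -1.33) and Chuk (41.2 against 80.0 CPM, -0.96) were lower in F4/80high cells, as were Irak2 (-1.02) and Traf6 (-0.83), which relay the Myd88 signal. Peli1 (0.27, adjusted p = 0.0502) and Tbk1 (0.18, adjusted p = 0.0820) were higher. The call of Peli1 was lost without F4/80high replicate 1 (0.26) or 2 (0.25) or F4/80low replicate 3 (0.18). That of Tbk1 was lost when any 1 library other than F4/80high replicate 2 was left out, with log2 fold changes of 0.14 to 0.21 over the 6.

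Transcription factors of the pathway had 0 higher and 10 lower of 12 (median -0.62). Irf5, which drives inflammatory cytokine genes, was at 273, 257 and 266 CPM in F4/80high against 547, 568 and 559 CPM in F4/80low libraries (-1.07 ± 0.08, adjusted p = 2.12e-05), with little spread in either subset. The NF-kB subunits Relb (40.3 against 126 CPM, -1.65), Nfkb2 (110 against 248 CPM, -1.17) and Nfkb1 (238 against 459 CPM, -0.95) were lower too.

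Negative regulators had 1 higher and 13 lower of 16 (median -0.82). Nfkbia, which holds NF-kB in the cytoplasm and is itself an NF-kB target, was at 154, 115 and 126 CPM against 491, 299 and 415 CPM (-1.61 ± 0.19, adjusted p = 0.000238). Nfkbie (-1.50), Sigirr (-1.40) and the deubiquitinase Cyld (-0.60) were lower as well, and Il1rl1, the receptor of IL-33, was higher by 0.78.

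Of 23 inflammatory target genes, 21 were tested, 2 were higher and 13 lower (median -1.11). The co-stimulatory genes Cd80 (7.34 against 46.3 CPM, -2.66) and Cd86 (45.9 against 99.2 CPM, -1.11), the chemokine Ccl5 (16.7 against 91.3 CPM, -2.46) and Il12b (1.55 against 16.2 CPM, -3.41) were lower in F4/80high cells. These genes are also used by mature DCs, whose markers were lower in the same libraries, and the part of those cells was not tested. The chemokine Ccl4 was higher (103 against 58.2 CPM, 0.83). Il10 was higher at 4.41, 1.03 and 2.37 CPM against a mean of 0.988 CPM (1.39 ± 0.62, adjusted p = 0.0993), groups that overlap, and this call was lost without F4/80high replicate 1 (0.79) or 3 (1.45) and without F4/80low replicate 2 (0.97) or 3 (1.55).

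Il1b, Il6 and Tnf are named as well-known products of the pathway, after their values were seen. Il1b was at 240, 98.1 and 107 CPM in F4/80high against 1888, 946 and 1392 CPM in F4/80low libraries (-3.25 ± 0.40, adjusted p = 0.000289), and Il6 was low in both, at a mean of 0.104 against 2.52 CPM (-4.60 ± 0.67, adjusted p = 0.000791). Tnf was at 47.6 ± 5.70 against 45.2 ± 12.9 CPM (SD, n = 3; adjusted p = 0.780), and without F4/80low replicate 1 it was 0.32 higher on the log2 scale, with an adjusted p of 0.0655.

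Genes listed as interferon targets of Ticam1 had 0 higher and 6 lower of 9 tested (median -0.57). Whether their levels depend on Ticam1 was not tested. Isg15 (55.2 against 119 CPM, -1.11), Mx1 (65.0 against 125 CPM, -0.94), Ifit1 (47.2 against 82.5 CPM, -0.80) and Ifit3 (103 against 151 CPM, -0.56) were lower in F4/80high cells. The members, with 6 higher and 0 lower, and the accessory genes were the only groups with more calls higher than lower. No test was made of the lists against each other.

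**Figure D5:**
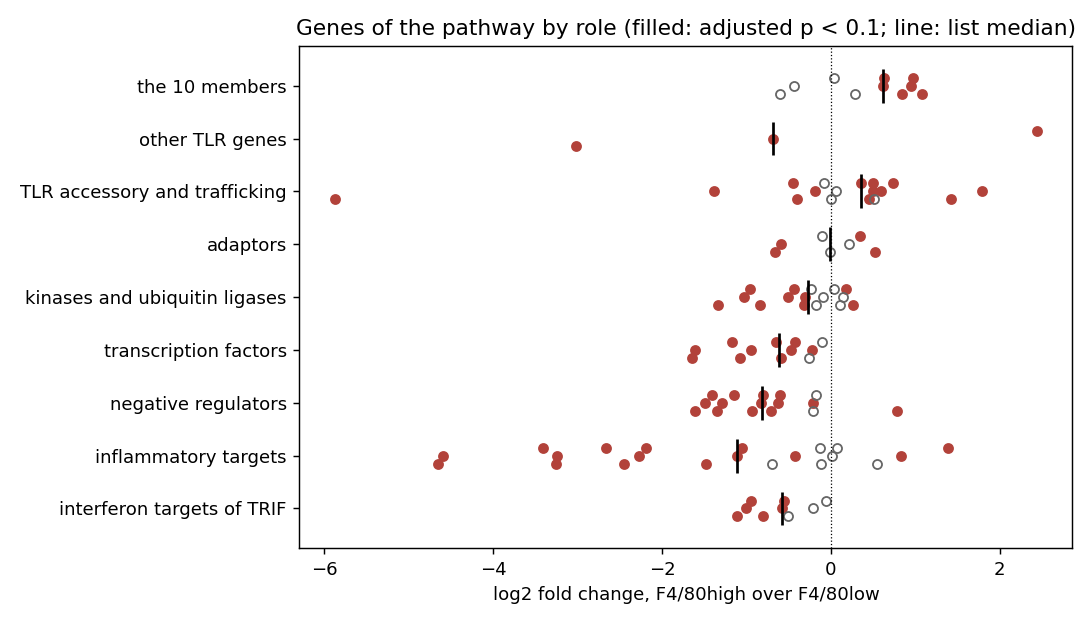
Log2 fold change (F4/80high over F4/80low) of each tested gene of the members and of 8 pathway lists, filled for an adjusted p under 0.1, with a line at the median of each list. The members have a median of 0.62, and the medians of transcription factors, negative regulators, inflammatory targets and interferon targets lie between -1.11 and -0.57.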

How the data were processed

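RNA was sequenced from 6 libraries of sorted macrophages, 3 per subset, which the labels put in the groups F4/80high and F4/80low. The table deposited by the authors holds estimated counts per gene as whole numbers, keyed by Ensembl gene ID. The submitters' processing notes name Trim Galore, Salmon 1.10.0, R 4.3.1, DESeq2 1.40.2 and GRCm39, without their roles, and the annotation release and any filter on genes are not given in the sources used here. The table lists 13759 genes, each with a total of at least 37 over the 6 libraries. Gene symbols and positions came from GENCODE vM39 on GRCm39, which named 13726 of the 13759 IDs. Promoter sequences and coding sequences were read from that genome and annotation, and 1 receptor window is not reported here.

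Counts were scaled by the trimmed mean of M values (TMM) and tested with edgeR 4.0.16 (R 4.3.3) in its quasi-likelihood test, F4/80high against F4/80low, after filterByExpr, which removed no gene. P-values were adjusted over all 13759 genes by Benjamini-Hochberg, and a gene was called at an adjusted p under 0.1, a threshold the study names for its lymphocyte libraries and not for the macrophages. The standard error (SE) of a log2 fold change was derived from the F statistic, so it is approximate, and intervals are at 95%. The biological coefficient of variation was 0.162. Totals per library lay between 21278959 and 32267015, and lower counts carry more counting error. The steps were tested on simulated data.

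The members, the pathway lists and the marker lists were chosen with earlier results of these data known. Named were all 10 members, for each pathway list up to 4 called genes per direction by smallest adjusted p, Ly96, Unc93b1, Myd88, Ticam1, Tirap and Ticam2 whatever their result, and the 3 genes most correlated with the called member of smallest adjusted p. Alternatives were DESeq2 1.42.0, limma-voom (limma 3.58.1), other scalings and filters, a replicate block, an adjusted p under 0.05 and each library left out. The lymphocyte table, also deposited as estimated counts, was made with another kit and used for levels only.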

Additional observations from a re-analysis of the deposited data

Results flagged for a closer look

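Signal of the members also appeared in the 12 libraries of sorted type 1 lymphocytes, which no comparison above uses: NK cells and ILC1 of metastasis-free liver (MFL), and CD49a- and CD49a+ NK cells of liver metastasis (LM). These values are CPM of another library kit and of a separate table, so no fold against the macrophages is given. Each of the 10 genes had more than 3 counts, the limit that a count of 0 allows, in at least 1 library. Tlr4 was the exception in having counts in 12 of 12 libraries: 15.02, 87.5 and 7 CPM in LM CD49a- NK cells, 3.48, 14.5 and 5.87 CPM in LM CD49a+ NK cells, 0.979, 12.1 and 11.9 CPM in MFL NK cells and 2.29, 2.34 and 2.37 CPM in MFL ILC1. The value of 87.5 CPM, from 791 counts in replicate 2 of LM CD49a- NK cells, was the highest of any member. The macrophage gene Adgre1 was at 0 in the 6 LM libraries, and Mertk was at 0 there too. C1qa reached 0.996 CPM in replicate 2 of LM CD49a- NK cells, the library with 87.5 CPM of Tlr4. The myeloid genes Csf1r and Lyz2 were at 0 in that library and present in some other LM libraries. Csf1r reached 6.40 CPM in replicate 2 of LM CD49a+ NK cells, and Lyz2 reached 18.3 CPM in LM CD49a+ and 3.70 CPM in LM CD49a- NK cells.

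The other members had counts in 2 to 6 of the 12 libraries. Tlr7 reached 9.65 CPM in replicate 3 of LM CD49a+ NK cells and Tlr8 9.07 CPM in replicate 1 of MFL ILC1. The highest values of the rest were 3.51 CPM for Cd14, 3.12 CPM for Tlr6, 2.63 CPM for Tlr13, 1.97 CPM for Tlr2, 1.90 CPM for Tlr9, 0.589 CPM for Tlr3 and 0.586 CPM for Tlr1. Those of Cd14, Tlr13, Tlr2 and Tlr9 fell in replicate 2 of MFL ILC1, where Lyz2, a myeloid gene, was at 85.1 CPM against 7.54 and 1.32 CPM in the other two ILC1 libraries. The part of myeloid RNA in these values was not tested, and differences between lymphocyte groups were not tested.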

How the results depend on the processing

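Over 15 alternative analyses of the macrophage table the calls of Tlr1, Tlr3, Tlr4, Tlr7, Tlr8 and Tlr13 held, and the number of members called higher was 6 to 8. Of these analyses, that without a filter only repeats the main fit. The number called lower, 0 in the main analysis, was 1 with DESeq2 (Tlr9), 1 with the replicate number as a block (Cd14, -0.57, adjusted p = 0.0074), and 0 to 1 when single libraries were left out (Tlr9 without F4/80high replicate 3, Cd14 without F4/80low replicate 2); the cause was not tested. No label says what same-numbered libraries share. Over all genes, the deviations of same-numbered libraries correlated at 0.172, -0.015 and 0.027, and F4/80high replicates 2 and 3 did not correlate best with their own number. Single genes can differ from this: Cd14 was lowest in replicate 2 of both subsets. Replicate 2 was lowest for 10 members in F4/80high and for 2 in F4/80low cells. The block gave 3791 genes higher and 3721 lower, against 3821 and 3734 without it. DESeq2 called 3518 higher and 3682 lower, and an adjusted p under 0.05 left 3235 in each direction. With single libraries left out Tlr2 lay between -0.0062 (without F4/80low replicate 2) and 0.092. Tirap, -0.014 in the main analysis, was 0.076 with upper quartile scaling and 0.13 with library totals, where Ticam2 was 0.037, and with single libraries left out Tirap lay between -0.16 and 0.085 and Tnf, 0.071 in the main analysis, between -0.055 and 0.32. With DESeq2 size factors the calls of Il10 (adjusted p = 0.102) and Tbk1 (0.109) were lost. Upper quartile scaling moved the median of all genes to 0.10 and the share of called genes that were higher to 59.9%. On coding length, the level of Tlr2 over Tlr6 in F4/80high cells was 16.95 times, against 14.8 times on exon length, and Tlr9 fell behind Tlr7 in F4/80high and behind Tlr13 in F4/80low cells. With 3 libraries per subset, a difference as small as that of Tlr2 could not be resolved, and its interval bounds it.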
